A study of Mus musculus with 12 samples.

Results

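Solute carriers (SLC) were followed in 12 RNA-seq libraries, made from mouse small-intestinal crypt cells that had been sorted by flow cytometry. A gene was taken where its symbol begins with Slc and a number, it is annotated as protein coding, and its mean reached 10 CPM (the usual scaled count, relative to all gene counts of its library) in at least 1 of 4 groups. The subfamilies Slc10, Slc25, Slc30, Slc39 and Slc51 were not included. This gave 149 genes, of 296 protein-coding genes in the same subfamilies, 377 protein-coding Slc genes and 55414 genes in the whole table. They fall into 43 of the 46 subfamilies present. The 4 groups, with 3 libraries each, were Paneth cells and non-Paneth cells of wild-type mice (WT Paneth, WT non-Paneth), and the same sorts of GRvillinKO mice (GRKO Paneth, GRKO non-Paneth), which lack the glucocorticoid receptor (GR, encoded by Nr3c1) where the villin promoter is active, that is in the intestinal epithelium. All mice were C57BL/6J, and the labels list no treatment with a hormone or an inflammatory agent. Paneth cells were gated, per the methods, as CD24+ cKIT+ cells with medium to high side scatter that lack CD31, CD45 and TER119. How the non-Paneth cells were gated was not found in the labels or the methods. Neither the labels nor the methods state that the replicates of a group are separate mice, and p-values then measure only the spread between these libraries.

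Solute carriers move nutrients, ions, nucleotides and metabolites across membranes, either by facilitated diffusion or coupled to gradients of sodium, protons or other solutes. In the small intestine the enterocytes of the villus carry sodium-coupled sugar and amino acid carriers on the brush border, and carriers that release the same solutes to the blood on the basolateral side. Paneth cells sit at the base of the crypt and secrete lysozyme and alpha defensins. Glucocorticoids are known to support the maturation and the absorptive function of the gut epithelium.

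The genes were chosen by their mean CPM, so levels and counts of genes over the limit are descriptions. Of the 149 genes, 83 reached 10 CPM in all 4 groups, 45 in a non-Paneth group only and 8 in a Paneth group only, and the others in groups of both sorts but not in all. The 8 are Slc16a7, Slc17a9, Slc22a15, Slc2a10, Slc2a13, Slc36a4, Slc43a1 and Slc6a9. A gene that passed through 1 sort only had to be higher there, and counts are therefore also given for the 83 genes and for the 189 tested genes of the family with no limit. All 149 passed the filter on low counts of the fit. Just inside the limit were Slc2a13 with 10.4 CPM in GRKO Paneth, Slc7a2 with 10.6 CPM in GRKO non-Paneth and Slc49a3 with 11.2 CPM in WT non-Paneth cells. Just outside were Slc31a2 with 9.99 CPM in WT Paneth, Slc38a9 with 9.33 CPM in WT non-Paneth and Slc5a3 with 8.75 CPM in GRKO non-Paneth cells.

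The libraries held 11126297 to 15910292 counts. Nr3c1 had 33.7, 33 and 41.1 CPM in the WT Paneth libraries and 5.28, 4.73 and 12.1 CPM in GRKO Paneth, and 135, 151 and 159.5 CPM in WT non-Paneth and 29.2, 19.6 and 36.2 CPM in GRKO non-Paneth libraries, so its level follows the titles, from which the genotype was taken, and not the genotype field, which contradicts the title in some libraries. Lyz1, the lysozyme of Paneth cells, lay between 97540 and 162529 CPM in the Paneth libraries and between 124 and 398 CPM in the non-Paneth libraries. The second WT replicate stands apart in both sorts by carrying Xist, at 126.5 and 256.6 CPM, where the other 10 libraries have at most 0.52 CPM. No GRKO library carries it at such a level, so what goes with Xist is not balanced between the genotypes. Its part in the genotype comparisons was not tested. The TMM factors, which correct for differences in composition between libraries, were 0.656 to 0.826 in Paneth cells. They were 1.2 to 1.22 in WT non-Paneth and 1.46 to 1.5 in GRKO non-Paneth cells. What set these factors, such as the share of secretory products, was not tested. Scaling by library totals in place of TMM shifted the median over all genes, on the log2 scale, by -0.70 in WT Paneth against non-Paneth, by -0.97 in the same comparison of GRKO cells and by 0.29 in GRKO against WT non-Paneth cells. Fold changes below are log2, after TMM scaling, with their standard error (SE), from edgeR's quasi-likelihood test over 13057 genes, and a gene is called at a Benjamini-Hochberg adjusted p (q) under 0.05. In bulk samples fewer cells of a type and less RNA per cell cannot be told apart.

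The promoters of 5 of the genes are printed here for reference, 5′ to 3′ on the strand of the gene. Each window runs from 250 bases before to 50 bases after the start of the Ensembl canonical transcript in GENCODE (GRCm39). Slc28a1 and Slc47a1 are shown as the genes with the lowest WT Paneth level relative to non-Paneth cells, Slc16a7 and Slc1a4 as genes with the opposite pattern, and Slc3a1, chosen after the search, for its matches. Their positions are chr7:80764297-80764596 (Slc28a1, plus strand), chr11:61268885-61269184 (Slc47a1, minus), chr17:85335554-85335853 (Slc3a1, plus), chr10:125164835-125165134 (Slc16a7, minus) and chr11:20282725-20283024 (Slc1a4, minus). Capitals mark matches, on either strand, to the GC box GGGCGG (its reverse reads CCGCCC), the TATA box TATAAA, the HNF4 motif CAAAGTCCA and the HNF1 motif GTTAAT (its reverse reads ATTAAC). A CDX motif, TTTATGG, and a GR motif, AGAACA, were also searched and have no match in these 5 windows.
Slc28a1: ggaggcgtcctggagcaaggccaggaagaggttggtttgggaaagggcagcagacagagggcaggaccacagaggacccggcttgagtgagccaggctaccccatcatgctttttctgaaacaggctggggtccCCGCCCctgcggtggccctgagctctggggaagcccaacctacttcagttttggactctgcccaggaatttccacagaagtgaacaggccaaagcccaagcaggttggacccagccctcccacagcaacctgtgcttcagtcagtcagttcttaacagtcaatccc
Slc47a1: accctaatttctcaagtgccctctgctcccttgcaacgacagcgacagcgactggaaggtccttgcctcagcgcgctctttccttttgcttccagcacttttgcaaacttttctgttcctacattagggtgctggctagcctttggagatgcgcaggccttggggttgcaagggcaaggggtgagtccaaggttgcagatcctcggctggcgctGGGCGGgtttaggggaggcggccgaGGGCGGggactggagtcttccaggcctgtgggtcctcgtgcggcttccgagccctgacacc
Slc3a1: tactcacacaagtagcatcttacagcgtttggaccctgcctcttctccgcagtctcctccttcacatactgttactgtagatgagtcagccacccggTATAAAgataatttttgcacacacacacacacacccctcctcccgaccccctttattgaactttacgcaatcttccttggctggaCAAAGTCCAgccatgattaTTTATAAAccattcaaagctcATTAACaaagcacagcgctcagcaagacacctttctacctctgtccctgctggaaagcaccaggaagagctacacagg
Slc16a7: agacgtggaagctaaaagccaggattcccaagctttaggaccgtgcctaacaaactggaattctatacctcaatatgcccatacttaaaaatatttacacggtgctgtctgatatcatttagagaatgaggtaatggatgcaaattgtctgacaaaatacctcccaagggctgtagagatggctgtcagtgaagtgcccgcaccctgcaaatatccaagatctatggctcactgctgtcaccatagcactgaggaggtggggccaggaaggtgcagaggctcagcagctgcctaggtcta
Slc1a4: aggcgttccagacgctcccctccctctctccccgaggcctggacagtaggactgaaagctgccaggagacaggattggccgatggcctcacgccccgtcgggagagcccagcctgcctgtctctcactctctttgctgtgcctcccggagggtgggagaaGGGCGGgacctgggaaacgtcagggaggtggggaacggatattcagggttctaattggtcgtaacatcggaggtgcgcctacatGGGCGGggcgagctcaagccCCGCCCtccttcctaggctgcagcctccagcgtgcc
The Slc3a1 window has a TATAAA that starts 153 bases before the start, a pair that overlap on opposite strands 49 and 47 bases before it, an HNF4 match at 68 bases and an HNF1 match at 28 bases before it. Slc47a1 has GC boxes 36 and 11 bases before the start, Slc28a1 has 1 at 116 bases before it, and Slc1a4 has 3. No searched motif is in the window of Slc16a7.

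Over all genes, 13.2% of 21770 promoters hold TATAAA on either strand, 42.5% hold GGGCGG, 6.89% GTTAAT, 2.59% TTTATGG, 17.0% AGAACA and 0.45% CAAAGTCCA. Among the 149 solute carriers the shares were 10.7% for TATAAA, 57.7% for GGGCGG, 6.04% for GTTAAT, 2.01% for TTTATGG and 12.1% for AGAACA, and 2 promoters, those of Slc5a9 and Slc3a1, hold CAAAGTCCA. Among the 12110 tested genes with a promoter in the table they were 8.45%, 58.4%, 5.29%, 2.06% and 12.9% in the same order. Of the 86 genes lower in WT Paneth than in WT non-Paneth cells (below), 12 (14.0%) hold TATAAA, 9 (10.5%) GTTAAT and 15 (17.4%) AGAACA. Of the 37 that were higher, 1 (2.7%) holds TATAAA, none GTTAAT and 1 (2.7%) AGAACA. The GC box is in 47 (54.7%) of the lower and 21 (56.8%) of the higher genes, the CDX motif in 1 of each (1.16% and 2.7%), and the HNF4 motif in 2 (2.33%) of the lower and none of the higher. Among those with GTTAAT are Slc28a2, Slc6a20a, Slc16a10, Slc5a4a, Slc36a1, Slc26a3, Slc3a1 and Slc23a1. Median GC content was 57.2% in the promoters of the lower genes and 60.7% in those of the higher genes, against 58.0% over all tested genes. These are descriptions of letters in a window and were not tested.

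WT Paneth cells were compared with WT non-Paneth cells to see which carriers each sort holds. Carriers of dietary solutes were low in Paneth cells, by 10-fold and more for Slc5a1, Slc15a1 and Slc6a19 of the brush border. Others, such as the fructose carrier Slc2a5, fell by less. A smaller set, led by Slc16a7, Slc43a1 and Slc1a4, was higher in Paneth cells. Of the 149 genes, 123 were called, 37 higher (all genes 24%) and 86 lower (all genes 26.7%) in Paneth cells, where 50.7% of all genes tested were called. Their median log2 fold change was -0.81, against 0.01 over all genes. Among the 83 genes present in all groups 22 were higher and 42 lower, and among the 189 of the family 50 and 97. On library totals 24 were higher and 108 lower, with the median over all genes shifted by -0.70. Shares over all genes are not given for library totals, here or below, so these counts are not shown to be particular to the carriers. The libraries of the 2 sorts did not overlap in TMM-scaled CPM for 126 of the 149 (all genes 57.5%), 121 of the 123 among them.

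Of 25 textbook transporters of the intestinal epithelium, 24 fell and 1, the basolateral chloride uptake carrier Slc12a2, was higher in Paneth cells, a direction that turns on library totals (0.65 against -0.06), with a list median of -3.53. Slc28a1, which takes up pyrimidine nucleosides with sodium, had 0, 0.568 and 0.27 CPM in the WT Paneth and 116, 64.8 and 73.1 CPM in the WT non-Paneth libraries. No Paneth library came near the lowest non-Paneth library, and the log2 fold change was -7.51 ± 0.53 (q = 3.00e-07). Slc47a1, a proton exchanger of organic cations, had 0.0784, 0.243 and 0 CPM in Paneth and 37.9, 30 and 23.5 CPM in non-Paneth libraries (-7.33 ± 0.45, q = 7.90e-09). Slc23a1, the sodium-coupled vitamin C carrier, had 0.0784, 0.162 and 0.0899 against 27.8, 16 and 29.9 CPM (-7.02 ± 0.66, q = 1.24e-06). The Paneth values of Slc47a1 and Slc23a1 rest on 1, 3 and 0 and on 1, 2 and 1 counts, so the size of these folds is loosely set. Slc16a3, a lactate exporter, had 0.47, 1.7 and 1.08 CPM in Paneth and 21.6, 25.4 and 35.1 CPM in non-Paneth libraries, again without overlap (-3.94 ± 0.65, q = 5.66e-04).

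**Figure D1:**
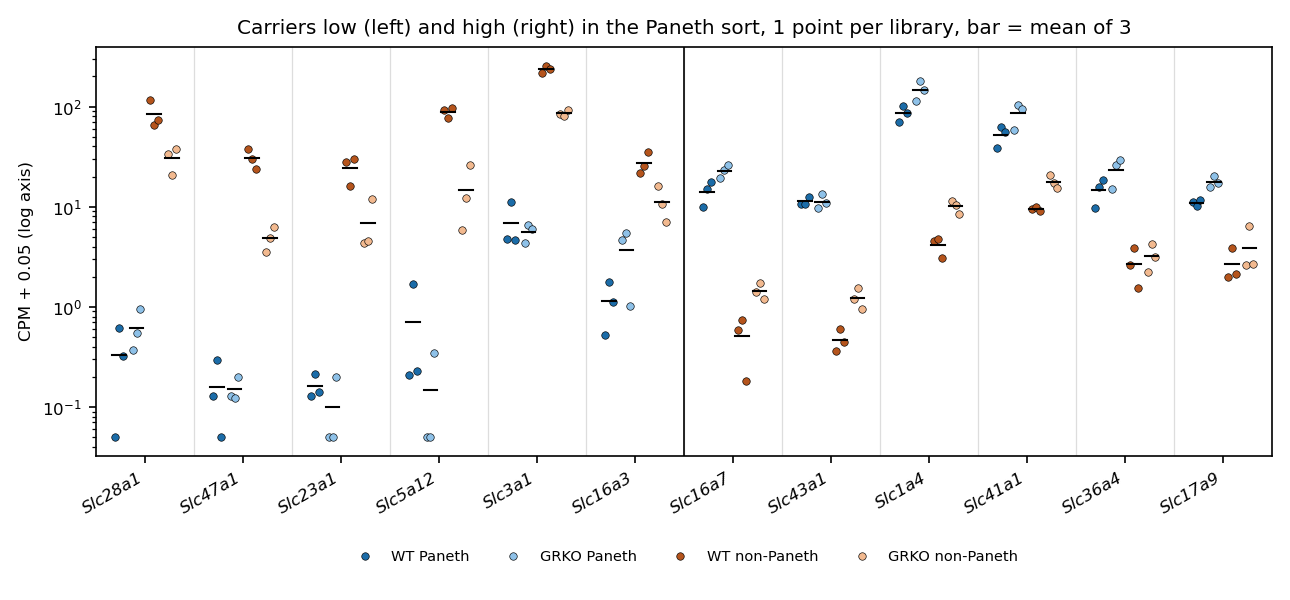
CPM plus 0.05 (log axis) of 6 carriers low and 6 high in the Paneth sort, 1 point per library in the 4 groups of 3, with a bar at each mean. Slc28a1, Slc47a1 and Slc23a1 lie under 1 CPM in all 6 Paneth libraries, and Slc16a7 and Slc43a1 under 2 CPM in all 6 non-Paneth libraries.

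Sugar carriers comprised 14 genes, of which 9 were lower and 4 higher in WT Paneth cells. Slc5a1, the sodium-glucose carrier of the brush border, was at 60.7, 85.2 and 64.4 CPM in Paneth and at 1217, 1347 and 1683 CPM in non-Paneth libraries (-3.61 ± 0.26, q = 7.67e-08). The basolateral glucose carrier Slc2a2 (-5.88), Slc5a4a (-5.95), Slc5a11 (-5.85) and Slc2a7 (-5.80) fell further. Slc2a5, which carries fructose, fell by less, with 9.25, 14.4 and 14.1 CPM in Paneth and 63.9, 67.2 and 51.5 CPM in non-Paneth libraries (-1.55 ± 0.29, q = 6.29e-04). Higher in Paneth cells were Slc2a10 (2.35), Slc50a1 (1.80), the proton-coupled inositol carrier Slc2a13 (1.55) and Slc45a4 (0.75).

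Amino acid and peptide carriers were the group with the most genes on both sides, 16 of 31 lower and 10 higher. The peptide carrier Slc15a1 had 1.1, 13 and 1.71 CPM in Paneth and 369.8, 456 and 398 CPM in non-Paneth libraries (-5.48 ± 0.90, q = 9.52e-04). Slc6a19, the neutral amino acid carrier of the brush border, had 1.57, 18 and 2.25 against 495, 692 and 615 CPM (-5.56 ± 0.90, q = 8.44e-04). In both genes most of the Paneth counts are in the second WT Paneth library, which is still far under the lowest non-Paneth library. That library also has the highest summed level of 19 enterocyte markers, 2660 CPM against 1296 and 1381 CPM in the other two, and is 1 of the libraries with Xist. Without it 24 of the 123 called genes had a fold change that moved by over 1.5 times, all 24 to lower Paneth values, with Slc15a1 at -7.58, Slc6a19 at -7.69, Slc28a1 at -8.71, Slc47a1 at -8.69 and the phosphate carrier Slc34a2 at -7.57, and all 5 stayed called. Without the first WT Paneth library 2 moved as far the other way, Slc28a1 to -6.83 and Slc13a2 to -5.56. Slc1a4, a carrier of alanine, serine and other small neutral amino acids, had 70.1, 101 and 86.9 CPM in Paneth and 4.5, 4.73 and 3.06 CPM in non-Paneth libraries (5.12 ± 0.24, q = 1.44e-09). Slc43a1, a facilitated carrier of large neutral amino acids, had 10.6, 10.7 and 12.4 against 0.31, 0.556 and 0.39 CPM (5.41 ± 0.27, q = 1.44e-09). The sorts are fully separate in both. Slc36a4 (3.19) and the glutamine carrier Slc1a5 (1.63) were higher as well.

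Some amino acid carriers work as heteromers of a heavy chain, Slc3a1 or Slc3a2, and a light chain of the Slc7 subfamily. Slc3a1, whose promoter is printed above, had 4.7, 11.2 and 4.58 CPM in WT Paneth and 219, 257 and 238 CPM in WT non-Paneth libraries (-4.38 ± 0.33, q = 5.40e-07). Its light chain Slc7a9, with which it takes up cystine and basic amino acids, fell nearly as far, with 4.39, 13.4 and 4.67 against 214, 265 and 222 CPM (-4.21 ± 0.47, q = 4.46e-05). The light chains of the other heavy chain went both ways. Slc7a7 (-2.56 ± 0.14, q = 4.66e-09) and Slc7a8 (-3.06 ± 0.20, q = 1.92e-08), the basolateral pair, were lower in Paneth cells, and Slc7a5 (1.94 ± 0.19, q = 6.26e-07) and Slc7a6 (1.18 ± 0.15, q = 1.07e-05) higher. Slc3a2, the CD98 heavy chain itself, had 80.7, 97.1 and 66.2 CPM in Paneth and 268, 263 and 249 CPM in non-Paneth libraries (-0.95 ± 0.16, q = 1.48e-04). Slc7a11 did not reach 10 CPM in any group. Slc7a6 overlaps the gene Slc7a6os on the opposite strand, and which strand column the authors used was not found in the labels or the methods.

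Among carriers of bicarbonate, chloride, sodium and protons, 12 of 16 were lower and 2 higher. Slc9a3, the sodium-proton exchanger of the brush border, had 0.941, 8.27 and 2.88 CPM in Paneth and 214, 284 and 399 CPM in non-Paneth libraries (-5.45 ± 0.76, q = 3.34e-04). The anion exchangers Slc26a6 (-4.83) and Slc26a3 (-3.62) fell too. Slc12a2 had 558, 527 and 635 CPM in Paneth and 648, 539.5 and 603 CPM in non-Paneth libraries, which overlap before TMM scaling. Slc12a8 was higher (1.66 ± 0.17, q = 1.31e-06).

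The smaller groups were mostly lower. Of 13 carriers of vitamins, choline and urea 8 were lower, with the folate carrier Slc46a1 (-3.08) and the riboflavin carrier Slc52a2 (-2.75) next to Slc23a1, and 4 higher, among them the reduced folate carrier Slc19a1 (1.35) and the urea carrier Slc14a1 (1.10). Of 10 carriers of organic acids and monocarboxylates 6 were lower, led by Slc5a12 (-6.32) and the citrate and succinate carrier Slc13a2 (-6.20), and 2 higher. Slc16a7, a monocarboxylate carrier, was the most different of these, with 9.88, 14.8 and 17.4 CPM in Paneth and 0.543, 0.696 and 0.13 CPM in non-Paneth libraries (5.66 ± 0.37, q = 1.44e-08). Among 9 carriers of organic ions and drugs 8 were lower and Slc22a15 was higher (1.56). All 5 nucleoside and nucleobase carriers were called, 4 lower and the equilibrative carrier Slc29a1 higher (1.27). Of 5 phosphate and sulphate carriers 3 were lower, with the phosphate carrier Slc34a2 at 1.1, 15.1 and 3.06 against 466, 739.9 and 576 CPM (-5.74 ± 0.98, q = 0.00118).

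Carriers of metals and of fatty acids each included a gene that was high in Paneth cells. Of 5 metal carriers 4 were lower, such as the iron exporter Slc40a1 (-3.53) and the iron uptake carrier Slc11a2 (-1.03). The magnesium carrier Slc41a1 was higher, with 38.3, 62.1 and 56.2 CPM in Paneth and 9.46, 9.88 and 8.98 CPM in non-Paneth libraries (3.20 ± 0.24, q = 9.93e-08). Of 3 fatty acid carriers, Slc27a4 was lower (-4.30), Slc27a1 higher (2.13) and Slc27a2 not called (-0.16).

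Carriers that serve organelles split more evenly. Of 21 in the endoplasmic reticulum and Golgi apparatus, most of them nucleotide-sugar carriers, 9 were lower and 5 higher. The lowest were Slc35d2 (-2.16) and Slc35e2 (-2.10), and the CMP-sialic acid carrier Slc35a1 was the highest (1.09). Of 8 in vesicles and lysosomes 3 were lower and 3 higher. The vesicular nucleotide carrier Slc17a9 had 11, 10.2 and 11.5 CPM in Paneth and 1.94, 3.83 and 2.08 CPM in non-Paneth libraries (2.75 ± 0.32, q = 5.77e-06). The vesicular monoamine carrier Slc18a1 was higher by 1.84 ± 0.22 (q = 7.15e-06). Of 7 remaining genes, haem carriers among them, 3 were lower and 2 higher, the latter the haem carrier Slc48a1 (1.49) and Slc66a2 (1.78). The last pair, Slc4a1ap and Slc7a6os, carry the symbol of a neighbour or partner and are not transporters by name, and neither was called.

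Paralogs often parted. Of the 33 subfamilies with at least 2 genes, 17 held genes called in both directions. No such count was made for other sets of genes, so this is not shown to be particular to paralogs. Examples are Slc43a1 (5.41) and Slc43a2 (-3.50), Slc41a1 (3.20) and Slc41a2 (-0.99), Slc36a4 (3.19) and Slc36a1 (-1.68), and Slc16a7 (5.66) and Slc16a3 (-3.94). Close copies such as Slc5a4a and Slc5a4b are uncertain, since reads that map to both are not in the counts.

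The enterocyte markers that moved with these genes give a scale for the low values. All 19 markers were lower in WT Paneth cells, with a median of -5.09, and their summed level there, 1296 to 2660 CPM, was 3.54% of that in non-Paneth cells (49021 to 51952 CPM). In the same terms the Paneth level of Slc5a1 was 4.95% of the non-Paneth level. It was 2.87% for Slc3a1, 0.33% for Slc28a1 and 30.3% for Slc11a2, and 28 of the 86 lower genes were under 5%. All these percents use CPM before TMM scaling, which puts Paneth levels lower than the fold changes do. After TMM scaling Slc11a2 was 2.04-fold lower in WT Paneth cells. How much of the low Paneth values came from enterocytes in the sort was not tested. Other markers moved with the 37 genes higher in Paneth cells. All 9 tested tuft cell markers were higher, with a median of 5.77 and sums of 198 to 457 CPM in Paneth and 7.76 to 16.7 CPM in non-Paneth libraries. All 9 stem cell markers were higher too, with a median of 1.05 and sums, before TMM scaling, of 5318 to 6973 against 4372 to 6000.3 CPM. Of 10 goblet cell markers 5 were higher and 3 lower (median 1.25), and of 10 enteroendocrine markers 7 were lower (-1.40). The part of these was not tested either.

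The same comparison in GRKO cells asks whether the difference between the sorts is there where Nr3c1 is reduced, though still detected. Nutrient carriers were again lower and Slc16a7, Slc1a4 and Slc43a1 higher in Paneth cells, with smaller differences for most of the lower genes. Of the 149 genes, 103 were called (all genes 39.2%), 41 higher (all genes 18%) and 62 lower (all genes 21.2%), with a median of -0.12 against -0.08 over all genes. Among the 83 genes 27 were higher and 23 lower, and among the 189 of the family 53 and 68. On library totals, with the median over all genes shifted by -0.97, 16 were higher and 113 lower. The balance of directions in GRKO cells therefore rests on the scaling.

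Set beside the WT comparison, which shares no library with it, 33 genes were higher in Paneth cells of both genotypes, 59 lower in both, 38 called in 1 genotype, 17 in neither, and 2 called in opposite directions. These last were the nucleotide-sugar carrier relative Slc35e1 and Slc41a2, lower in WT (-0.46 and -0.99) and higher in GRKO Paneth cells (0.51 and 0.93), where library totals turn the GRKO directions (-0.44 and -0.03). The calls of Slc35e1 were lost without any of 4 WT libraries and of 2 GRKO libraries. Of the 38, 25 were lower in WT only, among them Slc16a3, Slc2a5, Slc36a1, Slc3a2 and Slc46a1. Slc12a2, Slc14a1, Slc16a12 and Slc20a2 were higher in WT only, and for Slc20a2 the WT direction also turns on library totals (-0.32). A call in 1 genotype does not show a difference between them, which the interaction below tests.

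In GRKO Paneth libraries Slc2a7 had no counts, against 113 counts in the GRKO non-Paneth libraries, which at a floor of 3 counts over the group puts it at least 32.5-fold lower. Slc23a1 had 2 counts against 321, a ratio of CPM of 138 (95% counting interval 38.0 to 1147, which covers counting error only). Slc28a1 had 0.32, 0.501 and 0.893 CPM in GRKO Paneth and 33.6, 20.9 and 37.4 CPM in GRKO non-Paneth libraries (-4.76 ± 0.48, q = 1.22e-05). Both sorts remain fully apart. Slc47a1 had 0.0799, 0.0716 and 0.149 against 3.47, 4.84 and 6.24 CPM (-4.54 ± 0.52, q = 7.26e-06). Slc7a15 (-6.25), Slc5a12 (-6.14) and Slc6a19 (-5.51) were lower too, and all counts of Slc5a12 in GRKO Paneth cells (0, 0 and 4) are in 1 library. The size of these folds is loosely set: Slc5a12 was at -10.24 without the third GRKO Paneth, -5.50 without the second GRKO Paneth and -5.34 without the third GRKO non-Paneth library, and Slc7a15 at -6.91 without the first and -5.65 without the last of these. On the other side Slc16a7 had 19.2, 23.5 and 25.9 CPM in GRKO Paneth and 1.36, 1.7 and 1.15 CPM in GRKO non-Paneth libraries (4.99 ± 0.31, q = 2.18e-08). Slc1a4 had 114, 178 and 146 against 11.3, 10.3 and 8.47 CPM (4.83 ± 0.23, q = 2.28e-09). Slc43a1 (4.20), Slc36a4 (3.83), Slc41a1 (3.23), Slc17a9 (3.16) and Slc18a1 (2.84) followed, and Slc17a9 was at 3.82 without the second GRKO non-Paneth library. Of the 25 textbook transporters 19 were lower and none was higher, with a median of -2.18, and of the 7 heteromer partners 4 were lower and 2 higher, Slc7a5 and Slc7a6, which turn to -0.12 and -0.41 on library totals. Slc3a2 was at 0.06 on the log2 scale and was not called. The 19 enterocyte markers had a median of -3.49, and their summed Paneth level, before TMM scaling, was 10.1% of the GRKO non-Paneth level. All 9 tested tuft cell markers (2.29) and 6 of 10 goblet cell markers (1.68) were higher, and all 10 proliferation genes (-0.77) and 8 of 10 enteroendocrine markers (-2.19) lower in GRKO Paneth cells, and their part was not tested.

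**Figure D2:**
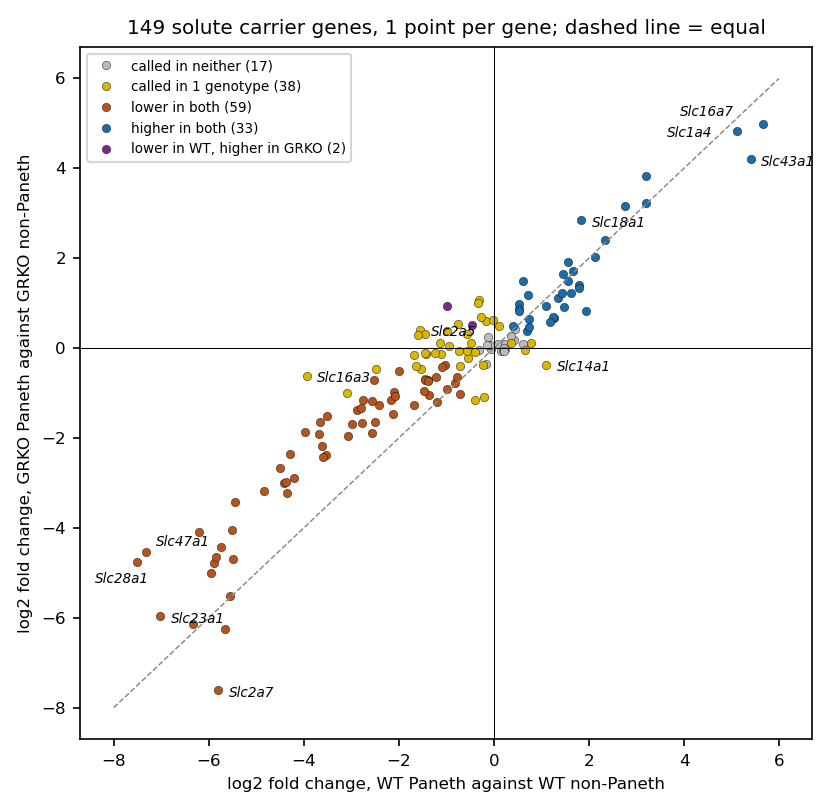
Log2 fold change of Paneth against non-Paneth cells in WT (horizontal) and in GRKO mice (vertical), 1 point for each of the 149 genes, coloured by the calls. The 59 genes lower in both lie at the lower left, most of them above the dashed line of equal values, and the 33 higher in both at the upper right.

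GRKO and WT non-Paneth cells were compared to see which carriers depend on the genotype outside the Paneth sort. Brush-border and basolateral carriers of nutrients were lower in GRKO cells, with a median of -1.76 over the textbook list, while carriers of amino acids such as Slc7a5, Slc7a1 and Slc38a1 were higher. Of the 149 genes, 93 were called (all genes 37.3%), 20 higher (all genes 17.5%) and 73 lower (all genes 19.8%), with a median of -0.51 against 0.02 over all genes. The libraries did not overlap in TMM-scaled CPM for 114 of the 149 (all genes 55.3%), all 93 among them. Among the 83 genes 15 were higher and 36 lower, and among the 189 of the family 23 and 84. On library totals, with the median over all genes shifted by 0.29, the split was 39 higher and 54 lower.

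Of the textbook list 16 of 25 were lower and 3 higher. Slc5a1 had 1217, 1347 and 1683 CPM in WT and 699, 433 and 459 CPM in GRKO libraries (-1.70 ± 0.24, q = 1.50e-04). Slc15a1 had 369.8, 456 and 398 against 82, 84.6 and 162 CPM (-2.19 ± 0.74, q = 0.0472). The 2 genotypes do not overlap in either gene. Slc2a2 (-2.12), Slc23a1 (-2.12), Slc9a3 (-2.04) and Slc28a2 (-1.99) were also lower. Slc34a2, with 98.9, 137 and 207 CPM in the GRKO libraries, missed the threshold with a larger difference (-2.30 ± 0.81, q = 0.0531), and so did Slc6a19, with 129.7, 128 and 241 CPM (-2.14 ± 0.74, q = 0.0513). The call of Slc15a1 was lost without any 1 of the 6 libraries (q from 0.058 to 0.13), and that of Slc9a3 without 4 of the 6, while it was at -2.72 and called without the first GRKO library. The 3 that were higher are Slc16a1 (0.58 ± 0.11, q = 0.00111), Slc12a2 (0.54 ± 0.14, q = 0.00856) and the glutamate carrier Slc1a1 (0.53 ± 0.15, q = 0.0109). Slc12a2, which crypt cells use to take up chloride for secretion, had 648, 539.5 and 603 CPM in WT and 1026, 1051 and 1098 CPM in GRKO libraries. Without the second WT library its q was 0.063, and the call of Slc1a1 was lost without 4 of the 6 libraries.

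**Figure D3:**
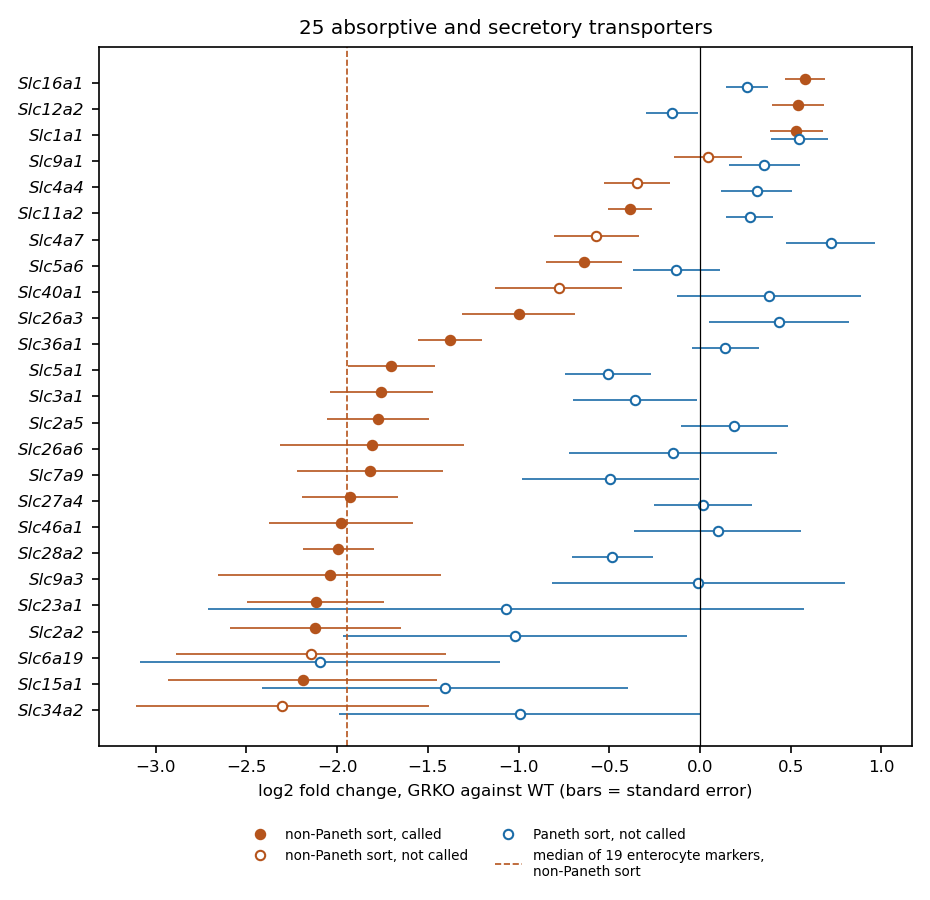
Log2 fold change of GRKO against WT with its standard error for 25 absorptive and secretory transporters, in non-Paneth and in Paneth cells (filled points are called). In non-Paneth cells 16 lie below 0 and are called and 3 above, and in Paneth cells none is called. The dashed line marks the median of 19 enterocyte markers in non-Paneth cells, -1.94.

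The largest differences in non-Paneth cells were in Slc2a7 (-2.95), Slc47a1 (-2.93), Slc5a12 (-2.87), Slc7a15 (-2.70), Slc5a4a (-2.49), Slc5a4b (-2.45), the carnitine and ergothioneine carrier Slc22a4 (-2.33) and Slc46a3 (-2.25). The order depends on the third GRKO non-Paneth library, without which Slc5a12 was at -3.63, Slc5a4b at -3.29 and Slc23a1 at -2.81. Slc47a1 went from 37.9, 30 and 23.5 CPM in WT to 3.47, 4.84 and 6.24 CPM in GRKO libraries (-2.93 ± 0.27, q = 5.18e-06). Slc46a3, a lysosomal carrier, had 40.7, 55.3 and 45.7 against 12.3, 11.9 and 12 CPM (-2.25 ± 0.30, q = 1.32e-04), and its GRKO values are nearly equal. Slc28a1 was at -1.75 (q = 0.00128) and Slc16a3 at -1.58 (q = 0.0331), both called lower, the latter in 2 of the 6 fits that left out 1 library. By substrate, 9 of 14 sugar carriers were lower and 2 higher, 7 of 9 organic ion carriers lower and none higher, 10 of 21 endoplasmic reticulum and Golgi carriers lower and 2 higher, and 13 of 31 amino acid carriers lower and 7 higher.

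**Figure D4:**
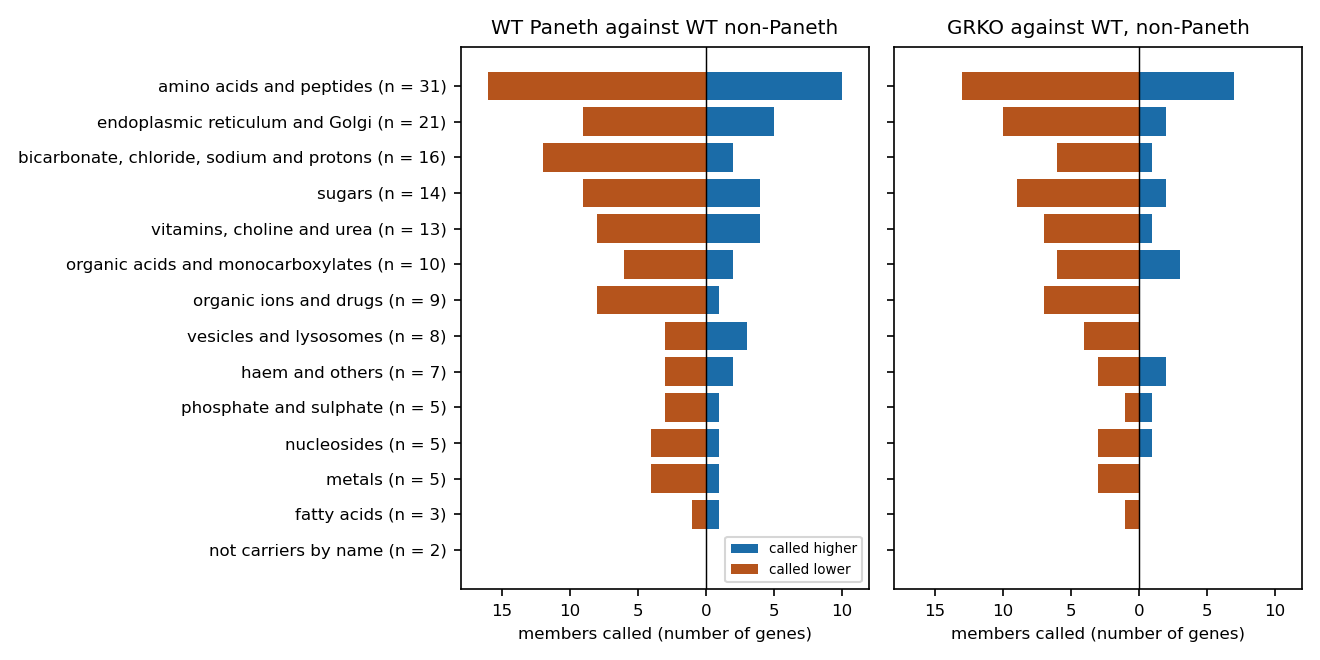
Number of genes called lower (left of 0) and higher (right of 0) in each of 14 substrate groups, for WT Paneth against WT non-Paneth cells and for GRKO against WT non-Paneth cells. Amino acid and peptide carriers have the most genes on both sides, with 16 lower and 10 higher in the first panel and 13 lower and 7 higher in the second.

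Higher in GRKO non-Paneth cells were 20 genes. Slc7a5, the light chain that exchanges large neutral amino acids, had 14.6, 19.7 and 13.6 CPM in WT and 48.4, 51.9 and 46.5 CPM in GRKO libraries (1.33 ± 0.18, q = 9.62e-05). The cationic amino acid carrier Slc7a1 had 90.8, 101 and 118 against 260.4, 211 and 218 CPM (0.87 ± 0.17, q = 0.00112), and the glutamine carrier Slc38a1 59.2, 58.9 and 65.7 against 133, 127 and 111 CPM (0.73 ± 0.15, q = 0.00165). All 3 have no overlap. Slc16a7 (1.34), Slc43a1 (1.18) and Slc1a4 (1.01), the genes with the largest positive difference between the sorts, rose too, but from low levels, Slc43a1 from 0.31, 0.556 and 0.39 to 1.16, 1.51 and 0.892 CPM. The call of Slc16a7 was lost without 4 of the 6 libraries and that of Slc43a1 without 2. Slc16a12 (1.24), Slc14a1 (0.93), Slc7a6 (0.78), Slc29a1 (0.67) and the glucose carrier Slc2a1 (0.65) were higher as well. Of the 7 heteromer partners 5 were lower, with Slc3a1 at -1.76, Slc7a9 at -1.82, Slc7a7 at -1.34, Slc7a8 at -0.69 and Slc3a2 at -0.85, and Slc7a5 and Slc7a6 were higher.

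Markers of several cell types moved with these genes. Of 19 enterocyte markers 12 were lower in GRKO non-Paneth cells, with a median of -1.94. Their summed level, before TMM scaling as for all sums here, was 13596 to 16609 CPM, 30.8% of that in WT cells (49021 to 51952 CPM). Of the 16 textbook transporters that were lower, 6 fell by more than this median and 10 by less. All 10 proliferation genes were higher, with sums of 2547 to 2590 CPM in GRKO and 1195 to 1390 CPM in WT libraries, as were 6 of 9 stem cell and 8 of 9 tested tuft cell markers, the latter with sums of 128 to 543 CPM in GRKO and 7.76 to 16.7 CPM in WT libraries. Of 10 immune markers only 4 were tested and 0 were called. The sums of all 10 were 476 to 1792 CPM in GRKO and 2502 to 2667 CPM in WT libraries. The part of these in the carrier results was not tested.

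Between GRKO and WT Paneth cells few carriers differed. Of the 149 genes, 13 were called (all genes 3.22%), 10 higher (all genes 1.7%) and 3 lower (all genes 1.52%) in GRKO, with a median of 0.15 against 0.03 over all genes. Of the 83 genes 9 were higher and 3 lower, and of the 189 of the family 10 and 4. At an unadjusted p under 0.05 there were 51 of 149 (all genes 26.7%), and DESeq2 called 24 (all genes 10.9%). Every adjusted p of the 13 lay close to the threshold, and none of the 13 kept its call in each of the 6 fits that left out 1 library. Without the second GRKO Paneth library 0 of the 149 were called (32 at an unadjusted p under 0.05), as without the third (46) and without the first WT Paneth library (41). Without the second WT Paneth library 1 was called, and without the first GRKO Paneth library 21. Shares over all genes are not given for these fits.

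The largest of the 13 was Slc29a3, a nucleoside carrier of lysosomes, with 8.94, 8.11 and 9.8 CPM in WT and 12.9, 19.9 and 17.6 CPM in GRKO Paneth libraries (0.88 ± 0.17, q = 0.0409). The libraries did not overlap in TMM-scaled CPM for 46 of the 149 (all genes 24.4%), and the 13 are among these. Slc26a2, a sulphate carrier, had 41, 53.4 and 61.4 against 72.9, 106 and 86.7 CPM (0.73 ± 0.19, q = 0.0491). Slc16a6 (0.79), Slc35e1 (0.69), Slc22a23 (0.68), Slc7a1 (0.65), the taurine carrier Slc6a6 (0.63), Slc38a1 (0.62), the UDP-galactose carrier Slc35a2 (0.61) and Slc38a10 (0.57) were the others that were higher. Among the lower were Slc35b3 (-0.73) and Slc27a2 (-0.56). Of the 25 textbook transporters 0 were called by edgeR, 4 at an unadjusted p under 0.05 and 2 by DESeq2, and their median was -0.01. Slc28a1 (1.01 ± 0.90), Slc47a1 (-0.15 ± 1.01) and Slc16a3 (1.74 ± 0.71) have wide errors at their low Paneth levels and did not pass the test. For Slc23a1 the groups hold 2 and 4 counts.

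The interaction of genotype and cell sort tests whether the GRKO effect differs between Paneth and non-Paneth cells, with positive values where it is higher in Paneth cells. Of the 149 genes, 56 were called (all genes 18.7%), 50 positive (all genes 11.5%) and 6 negative (all genes 7.28%), with a median of 0.64 against -0.01 over all genes. Of the 83 genes 35 were positive and 4 negative, and of the 189 of the family 52 and 7. On library totals, with the median over all genes shifted by -0.27, 35 of the 149 were positive and 12 negative. The number called was 37 without the second GRKO Paneth library. Refitted without each of the 12 libraries in turn, 35 of the 56 kept the call in every fit. Markers of several cell types moved with these genes, and their part was not tested. Of the 19 enterocyte markers 5 were positive and none negative (median 1.34). Negative were 8 of 10 proliferation genes (-0.86), 7 of 9 stem cell markers (-0.78) and 4 of 9 tested tuft cell markers (-3.50), and none of these was positive.

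Slc16a3 had the largest positive value, with 0.47, 1.7 and 1.08 CPM in WT Paneth, 4.64, 5.44 and 0.967 CPM in GRKO Paneth, 21.6, 25.4 and 35.1 CPM in WT non-Paneth and 16, 10.5 and 7.01 CPM in GRKO non-Paneth libraries. The GRKO effect was 1.74 in Paneth cells (not called) and -1.58 in non-Paneth cells, and their difference was 3.32 ± 0.87 (q = 0.0263), a call held in 8 of the 12 fits. Without the second WT Paneth library it was 3.93. Slc6a8, the creatine carrier, had 16.9, 23 and 15.7 CPM in WT Paneth and 19, 38.3 and 22.5 CPM in GRKO Paneth libraries. In non-Paneth cells it had 403, 565 and 484 CPM in WT and 199, 169 and 198 CPM in GRKO libraries, without overlap. The difference of the effects was 2.11 ± 0.33 (q = 0.00141) and was called in all 12 fits. Slc46a3 (2.02) was called in all 12 as well, and Slc46a1 (2.08) and Slc5a8 (2.01) in 4, with 2.67 and 2.62 without the second WT Paneth library. In these 5 genes the GRKO effect was negative in non-Paneth cells and was not called in Paneth cells.

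Of the 6 genes with a negative value 5 were called higher in GRKO non-Paneth cells, and Slc19a2 was called in neither sort. Slc14a1, the urea carrier, had 21.5, 13.9 and 19.1 CPM in WT and 10.9, 13 and 13.6 CPM in GRKO Paneth libraries. In non-Paneth cells it had 18.5, 12.2 and 10.3 CPM in WT and 28.7, 30.7 and 35.5 CPM in GRKO libraries (-1.46 ± 0.26, q = 0.00210). Slc7a5 was not called in Paneth cells, with 39.6, 40.4 and 32.2 CPM in WT and 30.1, 50.1 and 54.8 CPM in GRKO libraries, beside the higher GRKO values in non-Paneth cells given above (-1.10 ± 0.26, q = 0.00901). Both were called in all 12 fits. Slc43a1 (-1.21) kept the call in 3 of them, the thiamine carrier Slc19a2 (-0.89) in 9, Slc12a2 (-0.69) in 7 and Slc29a1 (-0.61) in 7. Of the textbook list 9 were positive and 1, Slc12a2, negative, and of the 7 heteromer partners 4 were positive (Slc3a1, Slc3a2, Slc7a7 and Slc7a8) and 1 negative (Slc7a5). The call of Slc3a1 was kept in 2 of the 12 fits.

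**Figure D5:**
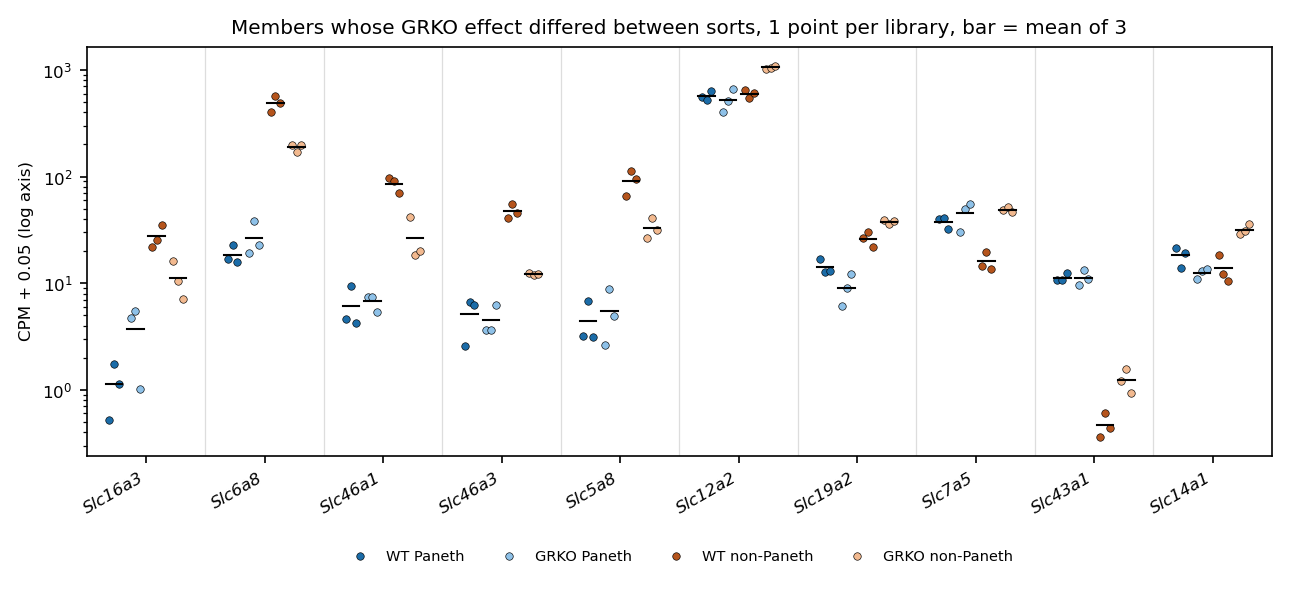
CPM plus 0.05 (log axis) of the 5 genes with the largest positive (left) and the 5 with the largest negative interaction (right), 1 point per library in the 4 groups, with a bar at each mean. In the first 5 the GRKO non-Paneth points lie under the WT non-Paneth points while the Paneth points of the genotypes overlap, and in the last 5 the GRKO non-Paneth points lie above the WT non-Paneth points.

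Levels per length, in TPM (counts divided by exonic length and scaled to the same sum in each library), order the carriers within a group. They are not TMM-scaled and do not compare the sorts. In WT, Slc12a2 was lower in Paneth than in non-Paneth cells by TPM, but higher by 0.65 on the log2 scale after TMM scaling. Slc5a1 was the highest in WT non-Paneth cells at 1212 ± 249.9 TPM (SD, n = 3), and had 529.8 ± 158 TPM in GRKO non-Paneth, 17.6 ± 2.86 TPM in WT Paneth and 13.8 ± 4.49 TPM in GRKO Paneth cells. It was followed in WT non-Paneth cells by the fatty acid carrier Slc27a4 (487 ± 38.8 TPM), Slc6a19 (420.2 ± 75 TPM), Slc34a2 (415 ± 98 TPM), Slc6a8 (323 ± 57.5 TPM), Slc15a1 (282 ± 32.3 TPM), Slc7a9 (277 ± 32.9 TPM) and Slc26a6 (269 ± 28 TPM). Slc5a1 stands clear of the rest, whereas the ranges of mean ± SD overlap in each later pair of neighbours. The 10 genes with the highest TPM in any group all had it in non-Paneth cells, so carriers were not ranked by their Paneth level. Among these 10, Slc12a2 had the highest Paneth TPM, with 46.6 ± 5.44 in WT and 45.7 ± 14.5 in GRKO. In non-Paneth cells it had 340.0 ± 7.38 TPM in GRKO against 164 ± 14.7 in WT. The GDP-fucose carrier Slc35c1 had 114 ± 16.5 TPM in WT and 222 ± 36 TPM in GRKO non-Paneth, and 19.9 ± 2.73 and 30.4 ± 11.2 TPM in WT and GRKO Paneth cells.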

How the data were processed

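The deposited table holds raw counts per gene, whole numbers with no normalization, which the authors made with Trimmomatic 0.39 and STAR 2.7.10a against mm39 (stranded TruSeq kit, single-end reads). Reads that map to several places or overlap several genes are not in such counts, so near-identical paralogs are uncertain, and neither the labels nor the methods name the strand column. The RNA kit named in the labels differs from that in the methods. Totals of 11126297 to 15910292 counts per library set the precision. No library was left out. To look for repeated libraries, the counts of each pair within a group were compared, with a chi-square per gene of 12.4 to 48.1 where a repeat of the same library would give about 1.

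Of the Ensembl identifiers 54749 (98.8%) took a symbol from GENCODE, and 665 did not. CPM used library totals, and TPM the exonic lengths. Tests used edgeR 4.0.16 under R 4.3.3 (filterByExpr, TMM, robust glmQLFit and glmQLFTest, 1 mean per group over all 12 libraries, Benjamini-Hochberg adjustment over 13057 genes). The procedure was also run on simulated counts in which few genes differed between groups. Those counts lack the large composition differences between these sorts, so they do not test the scaling. The study's own tool, DESeq2 (1.42.0), was an alternative, as were other scalings, filters, a length and GC trend removed (mgcv 1.9.3), a replicate block and each library left out in turn. The deviations of WT Paneth and WT non-Paneth libraries with the same number had correlations of 0.35, 0.23 and 0.24, all over 0.1, as a pairing by number would give. Those of GRKO libraries had 0.013, 0.26 and 0.47, which do not all pass 0.1. Between the genotypes, same-numbered libraries had 0.098, 0.16 and -0.098 in Paneth and -0.094, 0.17 and -0.085 in non-Paneth cells. A value over 0.1 therefore does not by itself mark a pair. The main fit used no pairing in either genotype, so the WT values given above ignore it. The replicate block paired the sorts by number in both genotypes.

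The genes, the textbook, heteromer and marker lists, and the substrate groups were chosen with earlier results of these data known. Some assignments to a substrate group (Slc4a1ap, Slc7a6os, Slc23a4, Slc17a4 and Slc35f2) were set after the genes had been seen. Named genes are Nr3c1, Slc28a1, Slc47a1, Slc23a1 and Slc16a3, the 10 largest positive and 10 largest negative differences among called genes without overlap of the libraries in each comparison (5 and 5 for the interaction), the 10 highest levels per length, the textbook and heteromer lists, 3 genes on either side of the 10 CPM limit, and up to 4 examples per substrate group. Genes named for a call in 1 genotype or for a motif match were chosen after their values were seen. Gene positions and promoters are from GRCm39. The labels name no batch, so a batch that followed a group cannot be told apart from it.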

Additional observations from a re-analysis of the deposited data

Results flagged for a closer look

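The genotype effect differed between the Paneth and non-Paneth sorts, by the interaction term of edgeR's fit over all genes, in 10 genes singled out by size. The log2 interaction (GRKO against WT in Paneth minus the same in non-Paneth cells) was 3.32 for the lactate exporter Slc16a3, 2.11 for the creatine carrier Slc6a8, 2.08 for the folate carrier Slc46a1, 2.02 for the lysosomal carrier Slc46a3 and 2.01 for Slc5a8. It was -1.46 for the urea carrier Slc14a1, -1.21 for Slc43a1, -1.10 for Slc7a5, -0.89 for the thiamine carrier Slc19a2 and -0.69 for Slc12a2. With each of the 12 libraries left out in turn, Slc6a8, Slc46a3, Slc14a1 and Slc7a5 kept an adjusted p under 0.05 in all 12 fits, Slc19a2 in 9, Slc16a3 in 8, Slc12a2 in 7, Slc46a1 and Slc5a8 in 4 and Slc43a1 in 3. The summed enterocyte markers, 13596 to 16609 CPM in GRKO against 49021 to 51952 CPM in WT non-Paneth cells, moved with the first 5 genes. The last 5 had GRKO non-Paneth values above the WT ones, in CPM before TMM scaling. So had the summed proliferation genes (2547 to 2590 against 1195 to 1390 CPM), stem cell markers (6938 to 8968 against 4372 to 6000.3 CPM) and tuft cell markers (128 to 543 against 7.76 to 16.7 CPM). The part of these was not tested.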

How the results depend on the processing

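The number of the 149 genes called stayed within 1.5 times of 123 in WT Paneth against WT non-Paneth cells, of 103 in GRKO cells and of 93 in GRKO against WT non-Paneth cells under every alternative run, among them DESeq2 (124, 104 and 99) and a false discovery rate of 1% (113, 90 and 69). Leaving out 1 library at a time, these counts were 119 to 122, 96 to 100 and 78 to 90. In GRKO against WT Paneth cells the 13 calls (all genes 3.22%) became 24 with DESeq2 (all genes 10.9%). They became 3 with a length and GC trend removed and 45 with no filter on low counts. There were 0 at an adjusted p under 0.01, on library totals, in a fit of only the groups compared and without both WT sorts of replicate 2 (58 at an unadjusted p under 0.05). With 1 library left out there were 0 to 21. Shares over all genes are not given for these other settings, so the changes are not shown to be particular to the carriers. The cause was not tested. The 56 interactions became 29 at an adjusted p under 0.01, and 37 to 68 with 1 library left out. A replicate block gave 127 calls in WT Paneth against WT non-Paneth cells, 109 in GRKO cells, 99 in GRKO against WT non-Paneth cells, 19 in GRKO against WT Paneth cells and 64 interactions, and lost the call of 5 of 328 single values followed. After removing group means, every WT library correlated best with its own number in the other sort (6 of 6), against 4 of 6 in GRKO.

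Library totals in place of TMM turned 15 of the 328 single values and ended the call of 47. In WT Paneth against non-Paneth cells these were Slc12a2 (-0.056), Slc20a2 (-0.32), Slc29a3 (-0.17), Slc33a1 (-0.015), Slc35a2 (-0.18) and Slc38a10 (-0.093). In GRKO cells they were Slc17a5 (-0.36), Slc29a1 (-0.31), Slc35a2 (-0.10), Slc35e1 (-0.44), Slc38a1 (-0.31), Slc41a2 (-0.031), Slc48a1 (-0.048), Slc7a5 (-0.12) and Slc7a6 (-0.41), all higher in Paneth cells after TMM scaling. Leaving out 1 library ended the call of 8 (GRKO Paneth replicate 1) to 31 (replicate 2 of either GRKO sort) of the single values it touched. By construction the library-total scaling moves all genes of a sort together. Under about 1 CPM, where a library holds few counts, the genotype effect in Paneth cells was called in 0 of 16 settings each for Slc28a1 (0.33 to 2.20), Slc47a1 (-0.67 to 1.21) and Slc23a1 (-4.25 to -0.46), and in 2 of 16 for Slc2a7 (-5.36 to -3.60).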
